A study of Homo sapiens with 28 samples.

Results

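The genes described here build and run the secretory machinery of the endoplasmic reticulum (ER). A list of 40 genes covers ER chaperones and their J protein partners, disulfide isomerases, sensors of the unfolded protein response, ER-associated degradation, the translocon, signal peptidase and traffic to and from the Golgi. A gene was included when a probe set of the array carries its symbol and no other, which gave values for 36 of the 40, set among 19775 genes in all. Their symbols are carried by 98 of 54675 probe sets, and each gene was read from its brightest one. PDIA5 and SYVN1 share their probe set with a microRNA symbol, and KDELR2 and SEC61G were not analysed here. All 36 genes passed the filter on dim signal, and 15437 of the 19775 genes did.

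The data are 28 expression arrays (Affymetrix HG-U133 Plus 2.0) hybridised with RNA of the human multiple myeloma lines U266, MM.1s, KMS11 and 8226/S. Arsenic trioxide (ATO, an inorganic arsenical) was given at 2 µM for 6, 24 or 48 h in every line. Darinaparsin (DAR, an organic arsenical carrying glutathione) was given for 6 or 24 h. Its dose was 4 µM for U266, 2 µM for 8226/S and 3 µM for the other lines. Each line has 1 array per treatment and time and 2 untreated arrays, numbered control 1 and control 2, so each of the 7 groups holds 4 arrays of 4 different lines. All groups were grown in RPMI medium with serum and antibiotics. The p-values therefore measure the spread of the change between lines. Since RNA came from whole cultures, fewer cells with a transcript and less of it per cell cannot be told apart.

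By their values the arrays form 2 sets, which no label mentions. Control 1 and the DAR arrays had median signals of 65.5 to 108.7 (12 arrays), while control 2 and the ATO arrays had medians of 110.9 to 147.3 (16 arrays). All 20 of 20 treated arrays lay nearer to the control of their own set and line, so ATO was set against control 2 and DAR against control 1. Of 9 plasma cell markers, 6 were above the array's median on all 28 arrays (SDC1, TNFRSF17, IRF4, PRDM1, POU2AF1 and JCHAIN). CD38 was above the median on 0 of 7 arrays of KMS11 and 3 of 7 of U266, SLAMF7 on 2 of 7 of 8226/S and MZB1 on 5 of 7 of U266. The epithelial genes EPCAM and KRT18 read 6540 to 11500 and 4870 to 19000 in 8226/S, and 1920 to 3450 and 306 to 757 in KMS11. The B cell gene MS4A1 was above the median on 7 of 7 arrays of 8226/S. Of the 3 myeloid markers, CD14 was above the median on 0 of 28 arrays, LYZ on 3 and CSF1R on 11. Some markers of other cell types were above it more often, with PECAM1 on 28 arrays (highest signal 524), HBB on 26 (2300) and COL1A1 on 22 (923), and their part in the results was not tested.

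Secretory proteins enter the ER through the SEC61 translocon, lose their signal peptide to signal peptidase, and fold with the help of BiP (HSPA5), GRP94 (HSP90B1), lectin chaperones and disulfide isomerases. When unfolded chains accumulate, the sensors IRE1α (ERN1), ATF6 and PERK (EIF2AK3) start the unfolded protein response. IRE1α splices XBP1 mRNA, and the XBP1 and ATF6 factors raise transcription of chaperone genes, in part through the ER stress response element (ERSE). Plasma cells, from which myeloma arises, depend on XBP1 to secrete antibody. The array values give gene levels and do not measure XBP1 splicing.

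The promoter sequences below show an element that 10 of the members hold. The 250 bases before each RefSeq transcription start (GRCh38.p14) were searched on both strands for ERSE, spelled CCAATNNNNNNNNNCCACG, and for its shorter relative ERSE-II, spelled ATTGGNCCACG. Of 36 members, 32 had such a window, 10 of these held an exact match, 7 to ERSE and 3 to ERSE-II, and 22 held neither. Among all 35116 windows, 26 (0.074%) held ERSE and 18 (0.0513%) held ERSE-II. ERSE was first described in several of these same promoters, so its presence there is not a finding, and a match is a description, not a shown binding site. The BiP promoter is shown whole, from chr9:125241344-125241593 on the minus strand, with the fixed bases of its exact ERSE in capitals.
HSPA5: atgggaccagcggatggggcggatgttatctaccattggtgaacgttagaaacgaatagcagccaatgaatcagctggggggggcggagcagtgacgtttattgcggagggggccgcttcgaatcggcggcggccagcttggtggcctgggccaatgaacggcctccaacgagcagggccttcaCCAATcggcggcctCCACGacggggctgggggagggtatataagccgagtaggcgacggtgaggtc

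Each remaining match is printed with its flanks, 5′ to 3′ on the strand that reads the motif forward, with the fixed bases in capitals. They are shown so that the constant ends and the variable spacer can be compared.
HSP90B1, ERSE, chr12:103930211-103930239, plus strand, 194 bases before the start: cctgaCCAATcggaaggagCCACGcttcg
HSP90B1, ERSE, chr12:103930316-103930344, minus strand, 89 bases before the start: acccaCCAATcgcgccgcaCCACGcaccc
CALR, ERSE, chr19:12938379-12938407, minus strand, 225 bases before the start: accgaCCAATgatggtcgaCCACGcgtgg
CANX, ERSE, chr5:179698773-179698801, plus strand, 151 bases before the start: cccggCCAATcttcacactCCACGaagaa
CRELD2, ERSE, chr22:49918549-49918577, minus strand, 80 bases before the start: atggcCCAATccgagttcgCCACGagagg
PDIA6, ERSE, chr2:10812848-10812876, minus strand, 86 bases before the start: ccggaCCAATgagccgcagCCACGgcttg
XBP1, ERSE, chr22:28800598-28800626, minus strand, 52 bases before the start: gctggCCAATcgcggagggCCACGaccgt
HYOU1, ERSE-II, chr11:119057265-119057293, plus strand, 79 bases before the start: cgcgtactcATTGGaCCACGtcccaggcc
HYOU1, ERSE-II, chr11:119057371-119057399, plus strand, 185 bases before the start: cggcctgggATTGGaCCACGtcacggggc
HERPUD1, ERSE-II, chr16:56932016-56932044, plus strand, 117 bases before the start: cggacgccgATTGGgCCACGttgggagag
SDF2L1, ERSE-II, chr22:21642105-21642133, minus strand, 188 bases before the start: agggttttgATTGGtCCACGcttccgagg

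HSP90B1 held an exact ERSE on each strand and HYOU1 held a pair of exact ERSE-II sites, while the other members held a single exact match. Inexact copies were not searched for. The sites began between 52 bases (XBP1) and 225 bases (CALR) before the start. The core of the XBP1-bound UPR element, TGACGTGG, was in 4 members, HYOU1, KDELR3, SSR3 and SSR4, against 215 of all windows (0.612%), and in HYOU1 it overlapped an ERSE-II. The ATF and CREB element TGACGTCA was in 0 of the 32 members and in 578 of all windows (1.65%). This says only that those letters are not in these windows.

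After 24 h of ATO the ER folding genes were lower in myeloma cells. Of 36 members, 18 fell and none rose, against 2.27% of all tested genes lower and 2.73% higher in the same fit (limma, Benjamini-Hochberg adjusted p under 0.05). The median log2 change over the members was -0.39, against 0.02 over all tested genes. Falls covered 7 of 8 chaperones, 3 of 4 disulfide isomerases, 1 of 3 J proteins, 1 of 3 sensors or factors, 1 of 3 degradation genes, 3 of 9 translocon genes, 2 of 4 signal peptidase genes and 0 of 2 traffic genes. In 25 members the change was below 0 in all 4 lines, and in 0 was it above 0 in all 4. The share of all genes with the same sign in all 4 lines was not counted. The mean change was above 0 in 2 of 36 members and in 8242 of 15437 tested genes. The falls ranged from -1.37 for SDF2L1 to -0.28 for SEC11C. The summed signal of the 9 plasma cell markers was 57880 to 112300 in control 2 and 41210 to 65500 after 24 h of ATO, and its part in these changes was not tested.

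**Figure D1:**
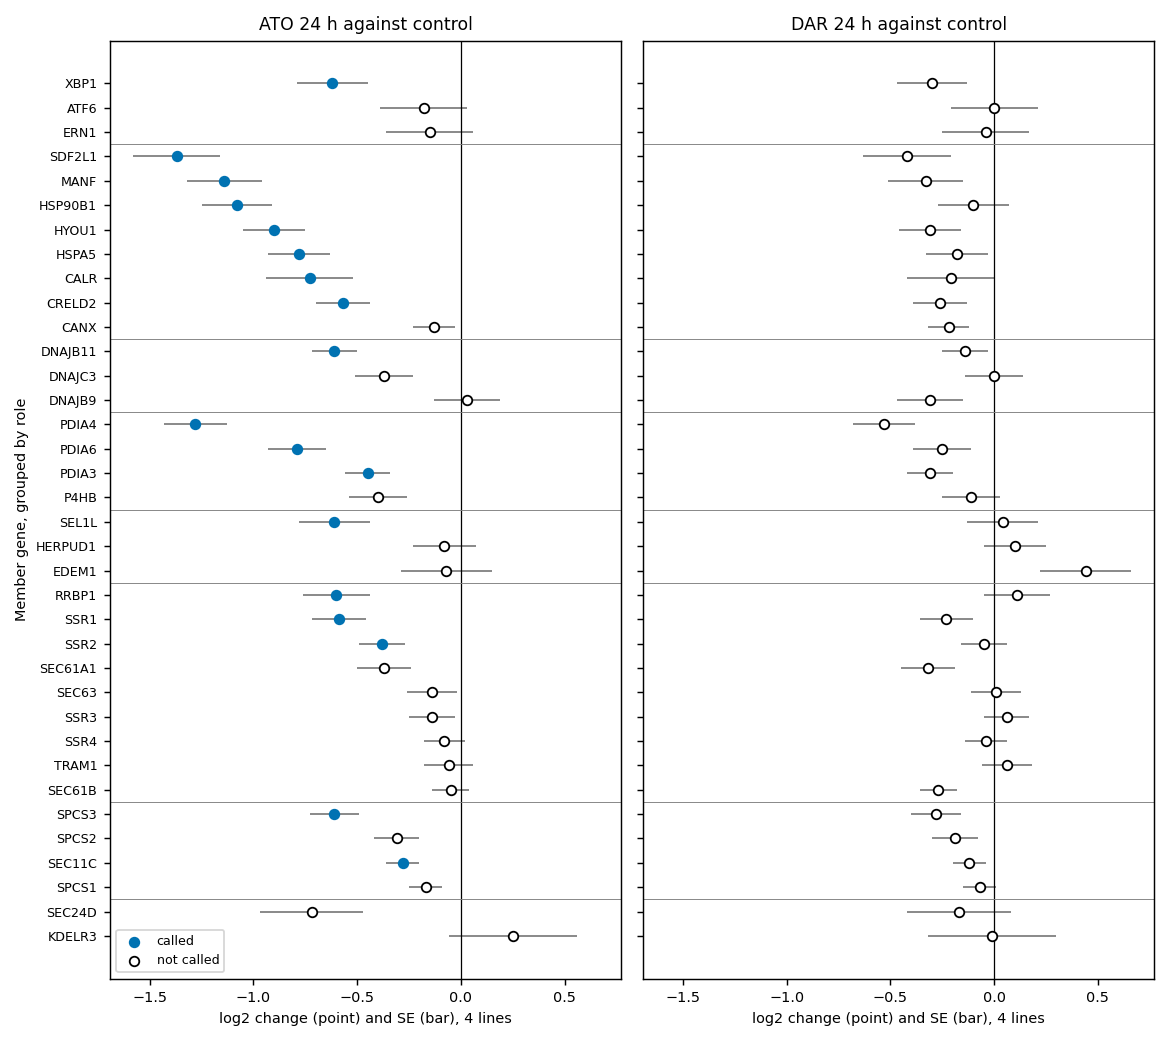
Log2 change of each of the 36 members against control (horizontal axis, points with SE bars, 4 lines) after 24 h of ATO (left) and 24 h of DAR (right), grouped by role. Filled points passed the test: 18 members on the left, all lower, and 0 on the right.

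The 18 calls leaned on MM.1s and KMS11. Leaving out MM.1s, KMS11, U266 or 8226/S gave 6, 7, 11 or 21 members. Without MM.1s, KMS11 and U266, 205, 205 and 306 of all tested genes were called, against 422 higher and 350 lower with all lines. Calls thus became fewer over all genes too, not only among the members. The calls of 6 members (HSP90B1, HYOU1, MANF, PDIA4, PDIA6 and SDF2L1) were kept whichever line was left out, and the other 12 were each lost without MM.1s and, SPCS3 apart, without KMS11. With all 8 controls pooled as the baseline 11 of the 18 were kept, and CALR and RRBP1 lost their fall, at 0.03 each. The other calls lost were those of CRELD2, DNAJB11, HYOU1, PDIA4 and SEL1L.

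Signals below are given in the order U266, MM.1s, KMS11 and 8226/S, as the deposited intensity of the brightest probe set, and changes are in log2 with the standard error (SE) of the fit. BiP, the chaperone that also holds the sensors inactive, is encoded by HSPA5 (probe set 211936_at). In control 2 HSPA5 was at 16291, 15090, 15884 and 19490, and after 24 h of ATO at 9300, 8838, 7276 and 14682. Its signal was lower in each line, the 2 groups did not overlap, and the fall was -0.78 ± 0.15 (adjusted p = 0.00368). Signals were 17062, 12305, 9137 and 15753 after 6 h of ATO and 10290, 13593, 12879 and 18453 after 48 h of ATO. KMS11 was already low at 6 h, whereas U266 was not, and at 48 h the change was -0.30 ± 0.15 (adjusted p = 0.234), short of the threshold. With DAR, control 1 read 24257, 18047, 19781 and 21927, the 6 h arrays 21036, 13816, 10970 and 17067 and the 24 h arrays 16573, 17433, 16670 and 23884. All 4 lines were lower at 6 h of DAR (-0.45 ± 0.15, adjusted p = 0.0523, just short of the threshold), and 8226/S was above its control at 24 h. A dim second probe set of HSPA5 moved further, by -1.73 after 24 h of ATO. The call at 24 h of ATO was lost without MM.1s or without KMS11.

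GRP94, the ER member of the HSP90 family, is encoded by HSP90B1 (216449_x_at). HSP90B1 measured 5416, 8851, 9486 and 4279 in the control 2 arrays, against 2197, 3146, 4055 and 3434 after 24 h of ATO. The groups did not overlap, U266, MM.1s and KMS11 were furthest below control, and the fall was -1.08 ± 0.17 (adjusted p = 0.000411). The other bright HSP90B1 probe set gave a smaller change at that time, -0.65. Arrays at 6 h of ATO read 5415, 7172, 6074 and 4543, and arrays at 48 h of ATO 2134, 4683, 5806 and 3137. At 6 h U266 stood at its control value, and at 48 h the gene was still lower, by -0.85 ± 0.17 (adjusted p = 0.00192). Signals in control 1 were 6792, 12346, 12694 and 7851, with 5750, 10224, 11656 and 6004 after 6 h and 4314, 13498, 14059 and 7708 after 24 h of DAR. After 24 h of DAR, MM.1s and KMS11 stood above their control and U266 below it (-0.10 ± 0.17, adjusted p = 0.841).

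SDF2L1, a small partner of the ER J proteins, showed the largest fall of the 36 (218681_s_at). The SDF2L1 signals were 1381, 1482, 2365 and 1055 in control 2 and 452, 487, 676 and 673 after 24 h of ATO. Each line was lower, without overlap, and the fall was -1.37 ± 0.21 (adjusted p = 0.000248), or 2.59-fold. The values were 1084, 1110, 1623 and 643 at 6 h of ATO and 341, 882, 871 and 525 at 48 h of ATO. U266 was lowest at 48 h, and MM.1s was part of the way back, with a fall of -1.26 ± 0.21 (adjusted p = 0.000373). In the DAR set SDF2L1 read 2253, 1947, 3047 and 1066 in control 1, 1570, 1308, 1371 and 794 at 6 h and 1436, 2047, 1805 and 819 at 24 h. At 6 h of DAR all 4 lines were below control and the gene fell by 0.66 ± 0.21 (adjusted p = 0.0365), while at 24 h MM.1s had returned to its control (-0.42 ± 0.21, adjusted p = 0.352). The call at 6 h of DAR was lost without U266, without MM.1s or without KMS11.

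MANF, a stress-induced ER protein that binds BiP, was the one member called as early as 6 h under both compounds (202655_at). In control 2 MANF was at 2971, 5977, 7299 and 5446, and after 6 h of ATO at 2235, 3916, 3246 and 3553. The fall at 6 h of ATO was -0.70 ± 0.18 (adjusted p = 0.0223), against 2.64% of all tested genes lower and 3.78% higher, and it was lost without MM.1s or without KMS11. Signals were 1582, 2184, 2063 and 4062 after 24 h of ATO and 1530, 3652, 3478 and 5920 after 48 h of ATO. The fall was deepest at 24 h, at -1.14 ± 0.18 (adjusted p = 0.000499), and at 48 h 8226/S was above its control (-0.65 ± 0.18, adjusted p = 0.0225, lost without U266, without MM.1s or without KMS11). With DAR, control 1 read 4172, 7639, 7094 and 7032, the 6 h arrays 2373, 4749, 3535 and 6434 and the 24 h arrays 3090, 7412, 4387 and 6298. At 6 h of DAR the gene fell by 0.65 ± 0.18 (adjusted p = 0.0182), with 8226/S nearly level. KMS11 had the largest change of the 4 lines at each ATO time.

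**Figure D2:**
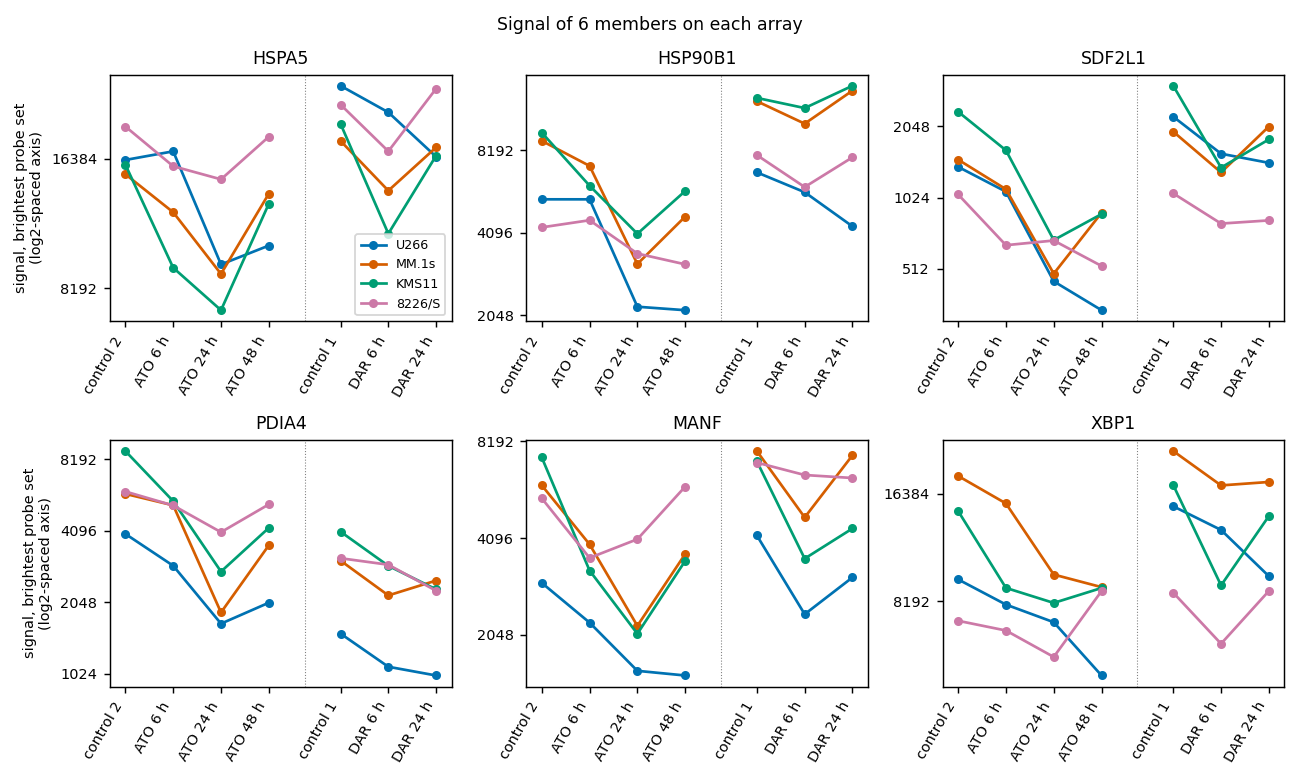
Signal of 6 members (vertical axis, log2-spaced) on each array, with a line joining the arrays of 1 cell line and the dotted rule parting the array sets. HSPA5, HSP90B1 and SDF2L1 after 24 h of ATO lie below every control 2 array, while PDIA4, MANF and XBP1 overlap with them.

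CALR is the lectin chaperone calreticulin. CALR measured 8078, 9880, 15992 and 11390 in the control 2 arrays, against 5883, 5177, 7763 and 8151 after 24 h of ATO. CALR fell by 0.73 ± 0.21 (adjusted p = 0.0474), with KMS11 furthest from its control. Arrays at 6 h of ATO read 6982, 8651, 11300 and 6781, and arrays at 48 h of ATO 4803, 4172, 7600 and 14292. At 48 h the fall was -0.68 ± 0.21 (adjusted p = 0.0368), although 8226/S was above its control. Signals in control 1 were 3866, 3222, 4228 and 3980, with 2499, 2951, 4366 and 5746 after 6 h and 2346, 2704, 4354 and 4190 after 24 h of DAR. Control 2 was above control 1 by 1.52 ± 0.13 for CALR, the largest such difference among the members. The CALR calls at 24 h and 48 h were lost without U266, without MM.1s or without KMS11. CANX, the membrane-bound lectin chaperone, was at -0.13 ± 0.10 (adjusted p = 0.552) after 24 h of ATO, and its 3 other bright probe sets at -0.39 to -0.20.

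Among the remaining chaperones, HYOU1 (GRP170, an exchange factor for BiP) fell by 0.90 ± 0.15 (adjusted p = 0.000603) after 24 h of ATO. CRELD2, a stress-induced ER protein, fell by 0.57 ± 0.13 (adjusted p = 0.0114). Neither passed at 48 h, where the changes were -0.35 ± 0.15 and -0.32 ± 0.13. HYOU1 was -0.89 in U266, -1.29 in MM.1s, -1.10 in KMS11 and -0.32 in 8226/S at 24 h. The HYOU1 and CRELD2 calls were lost with pooled controls, and control 2 was above control 1 by 1.42 ± 0.12 for HYOU1.

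The J proteins, which hand clients to BiP, moved in different directions over time. DNAJB11 fell by 0.61 ± 0.11 (adjusted p = 0.00233) after 24 h of ATO, and DNAJC3 was at -0.37 ± 0.14 (adjusted p = 0.146), with -0.66 and -0.27 in its other bright probe sets. DNAJB9 was the one member that rose in any comparison with control. The DNAJB9 signals were 4930, 7575, 3477 and 3084 in control 2 and 4364, 11803, 6766 and 5621 after 48 h of ATO. MM.1s, KMS11 and 8226/S were above control at 48 h and U266 was below it, and the rise was 0.57 ± 0.16 (adjusted p = 0.0245). The values were 7033, 10583, 4847 and 4331 at 6 h of ATO and 5787, 7511, 3335 and 3039 at 24 h of ATO. At 6 h the 4 lines were up by nearly the same amount, 0.51, 0.48, 0.48 and 0.49, with 0.49 ± 0.16 (adjusted p = 0.0774), and at 24 h the change was 0.03 ± 0.16 (adjusted p = 0.957). Its other 2 probe sets gave 0.42 and 0.47 at 6 h and 0.43 and 0.61 at 48 h. The call at 48 h was lost without MM.1s, without KMS11 or without 8226/S. In the DAR set DNAJB9 read 5591, 8005, 2886 and 3565 in control 1, 6348, 10006, 2114 and 3530 at 6 h and 3785, 8261, 2199 and 2807 at 24 h. Under DAR the lines split at 6 h (0.01 ± 0.16, adjusted p = 0.977).

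Disulfide isomerases make and reshuffle disulfide bonds in antibody chains. PDIA4 (ERp72) had the smallest adjusted p of the members (211048_s_at). In control 2 PDIA4 was at 3977, 5866, 8891 and 6002, and after 24 h of ATO at 1664, 1855, 2759 and 4045. The fall was -1.28 ± 0.15 (adjusted p = 1.19e-05), or 2.43-fold, with a slight overlap because U266 starts low. Signals were 2920, 5251, 5466 and 5242 after 6 h of ATO and 2039, 3561, 4217 and 5298 after 48 h of ATO. The 48 h fall was -0.73 ± 0.15 (adjusted p = 0.00235), with MM.1s and KMS11 part of the way back, and this call was lost without KMS11. The PDIA4 calls at 24 h and 48 h were both lost with pooled controls, and control 2 was above control 1 by 1.09 ± 0.11 for PDIA4. With DAR, control 1 read 1511, 3069, 4065 and 3141, the 6 h arrays 1095, 2189, 2917 and 2949 and the 24 h arrays 1006, 2529, 2322 and 2290. Every line was below its control at both DAR times, and the change at 24 h was -0.53 ± 0.15 (adjusted p = 0.0995).

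PDIA6 is an isomerase also known to act on IRE1α (207668_x_at). PDIA6 measured 17464, 18950, 17249 and 19510 in the control 2 arrays, against 11439, 7962, 7775 and 17367 after 24 h of ATO. MM.1s and KMS11 were furthest below control and 8226/S was nearly level, with a fall of -0.79 ± 0.14 (adjusted p = 0.000951). Arrays at 6 h of ATO read 16842, 16304, 13053 and 20408, and arrays at 48 h of ATO 9791, 10106, 9401 and 19045. The fall at 48 h was -0.66 ± 0.14 (adjusted p = 0.00237), again without 8226/S, and this call was lost with pooled controls. Signals in control 1 were 16314, 14771, 9788 and 15633, with 17918, 13322, 10867 and 15971 after 6 h and 15835, 11858, 6820 and 14366 after 24 h of DAR. PDIA3 (ERp57), the partner of the lectin chaperones, fell by 0.45 ± 0.11 (adjusted p = 0.0173) at 24 h of ATO. P4HB, the founding isomerase, was at -0.40 ± 0.14 (adjusted p = 0.11). Other bright probe sets gave -0.27 for PDIA3 and -0.73 and -0.64 for P4HB.

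XBP1 was the one factor or sensor among the 3 measured that changed (200670_at). The XBP1 signals were 9436, 18353, 14648 and 7231 in control 2 and 7165, 9735, 8111 and 5730 after 24 h of ATO. Each line was lower than its own control, though the lines overlap because they start at different levels, and the fall was -0.62 ± 0.17 (adjusted p = 0.0363). The values were 8025, 15380, 8934 and 6792 at 6 h of ATO and 5086, 8978, 8929 and 8754 at 48 h of ATO. At 48 h U266 and MM.1s were furthest below control and 8226/S was above its control, with a fall of -0.59 ± 0.17 (adjusted p = 0.0279). In the DAR set XBP1 read 15101, 21541, 17307 and 8664 in control 1, 12968, 17271, 9080 and 6238 at 6 h and 9633, 17656, 14180 and 8759 at 24 h. All 4 lines were below control at 6 h of DAR (-0.48 ± 0.17, adjusted p = 0.0675). Both calls were lost without U266, without MM.1s or without KMS11. A second, dim probe set, above the median on 10 arrays, moved the other way, by 0.53 at 24 h and 0.89 at 48 h of ATO.

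IRE1α is encoded by ERN1 (227755_at). In control 2 ERN1 was at 2993, 6294, 1848 and 2675, and after 48 h of ATO at 1759, 8361, 3892 and 4995. At 48 h MM.1s, KMS11 and 8226/S were above control and U266 was below it, so that the mean change was 0.40 ± 0.21 (adjusted p = 0.24). Signals were 2739, 4766, 1842 and 2729 after 6 h of ATO and 2105, 6184, 1741 and 2664 after 24 h of ATO. With DAR, control 1 read 2973, 5120, 813 and 1630, the 6 h arrays 2828, 4270, 716 and 1772 and the 24 h arrays 2198, 4675, 713 and 2483. After 24 h U266 was below its control under both compounds, and 8226/S was above its control after 24 h of DAR. Another bright ERN1 probe set gave -1.04 at 24 h and -0.78 at 48 h of ATO, so the 2 probe sets disagree and the direction for ERN1 rests on the probe set read.

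ATF6, the sensor that is cut in the Golgi to free a transcription factor, did not pass in any comparison with control (203952_at). ATF6 measured 1188, 2104, 1939 and 1245 in the control 2 arrays, against 1285, 1606, 2055 and 848 after 24 h of ATO. Arrays at 6 h of ATO read 901, 2387, 1784 and 1502, and arrays at 48 h of ATO 985, 1783, 1338 and 1865. Signals in control 1 were 923, 2661, 3225 and 1564, with 1012, 1802, 2929 and 1388 after 6 h and 1573, 1553, 3017 and 1710 after 24 h of DAR. At each treatment and time lines lay on both sides of their control, and the ATO 24 h change was -0.18 ± 0.21 (adjusted p = 0.751). At 6 h of DAR its other 3 probe sets gave -1.03, -0.65 and -0.66, against -0.18 in the one read.

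ER-associated degradation sends misfolded chains back to the cytosol. SEL1L, the scaffold of the HRD1 ubiquitin ligase, fell by 0.61 ± 0.17 (adjusted p = 0.0377) after 24 h of ATO, a call lost without U266, without MM.1s or without KMS11. HERPUD1, a stress-induced part of the same complex with an ERSE-II in its promoter, was at -0.08 ± 0.15 (adjusted p = 0.868). EDEM1 marks misfolded glycoproteins. The EDEM1 signals were 783, 4337, 1136 and 1535 in control 2 and 1314, 2487, 848 and 1742 after 24 h of ATO. In the DAR set EDEM1 read 749, 3850, 614 and 1114 in control 1, 2003, 3482, 614 and 2072 at 6 h and 1536, 4195, 570 and 1843 at 24 h. U266 was above its control in all 5 treatments, by 0.73 to 1.38, and MM.1s lay between -0.80 and 0.12. The test of line differences in the response gave EDEM1 the smallest p of the members, but it missed the threshold (adjusted p = 0.0703 over all genes).

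**Figure D3:**
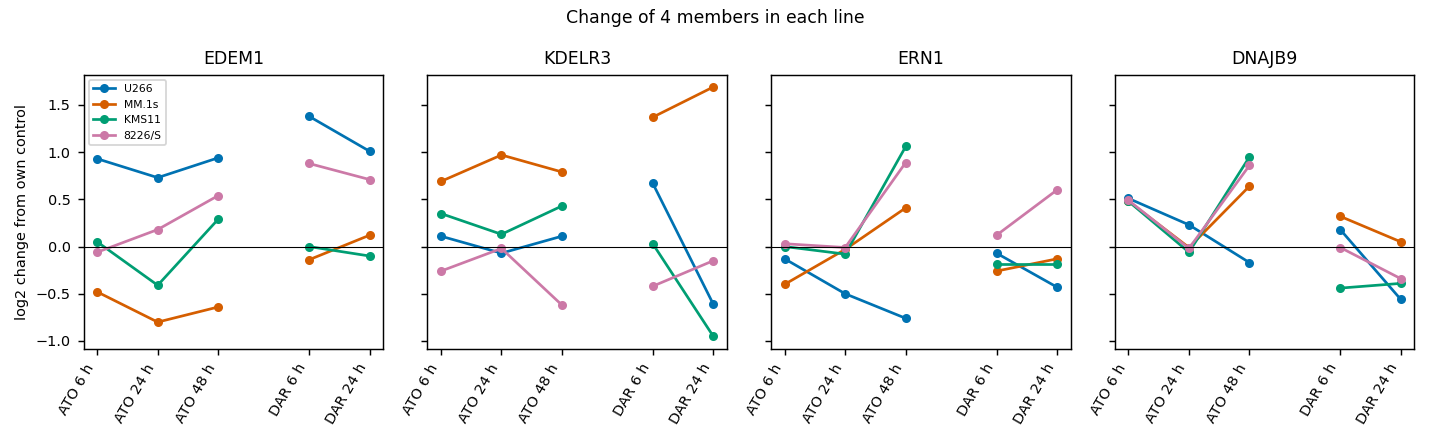
Log2 change from the untreated array of the same line and set (vertical axis) for EDEM1, KDELR3, ERN1 and DNAJB9 in each line and treatment, 1 array per point. EDEM1 is above 0 in U266 throughout, and DNAJB9 lies at 0.48 to 0.51 in the 4 lines after 6 h of ATO. KDELR3 is above 0 in MM.1s throughout, from a control 1 signal there of 25.1.

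The 9 translocon genes had a median change of -0.14 at 24 h of ATO. RRBP1, a ribosome-binding protein of the rough ER, fell by 0.60 ± 0.16 (adjusted p = 0.0286) (201204_s_at). In control 2 RRBP1 was at 2368, 8157, 4243 and 4972, and after 24 h of ATO at 1335, 4206, 2813 and 4870. 8226/S was level with its control and the other lines were lower, and the other bright RRBP1 probe set gave -0.92. The values were 2267, 5133, 2659 and 4674 at 6 h of ATO and 1647, 4070, 2025 and 5803 at 48 h of ATO. The 48 h fall was -0.59 ± 0.16 (adjusted p = 0.017), and both calls were lost without U266, without MM.1s or without KMS11. With DAR, control 1 read 668, 3887, 2115 and 2263, the 6 h arrays 719, 3630, 2030 and 2144 and the 24 h arrays 752, 3514, 2129 and 3056. The DAR change at 24 h was 0.11 ± 0.16 (adjusted p = 0.8).

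SSR1 encodes a subunit of the translocon-associated complex (200891_s_at). SSR1 measured 7134, 13793, 9817 and 16347 in the control 2 arrays, against 6147, 7564, 5177 and 12722 after 24 h of ATO. The fall was -0.59 ± 0.13 (adjusted p = 0.00751), largest in MM.1s and KMS11 and lost without either. Signals were 8374, 13830, 8776 and 15899 after 6 h of ATO and 5893, 8900, 5464 and 16488 after 48 h of ATO. The 48 h fall was -0.43 ± 0.13 (adjusted p = 0.0273), with 8226/S level. Signals in control 1 were 14322, 22487, 14920 and 26434, with 13352, 20387, 11918 and 24859 after 6 h and 9630, 18314, 14045 and 27293 after 24 h of DAR. Its other 5 bright probe sets also had negative changes at 24 h and 48 h of ATO. SSR2 fell by 0.38 ± 0.11 (adjusted p = 0.0399), whereas SSR3 and SSR4 of the same complex were at -0.14 ± 0.11 and -0.08 ± 0.10. The 3 other bright SSR3 probe sets gave -0.70 to -0.30, so the value for SSR3 rests on the probe set read. SEC61A1 and SEC61B, the pore itself, were at -0.37 ± 0.13 and -0.05 ± 0.09, and did not pass.

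Signal peptidase removes the signal sequence. SPCS3 carries a subunit of the complex (221844_x_at). The SPCS3 signals were 4004, 7394, 5727 and 3934 in control 2 and 2579, 4241, 3846 and 2875 after 24 h of ATO. All 4 lines were lower, with a fall of -0.61 ± 0.12 (adjusted p = 0.0025), lost without MM.1s. Arrays at 6 h of ATO read 3417, 6629, 4712 and 3573, and arrays at 48 h of ATO 1785, 5009, 4185 and 3202. The 48 h fall was -0.61 ± 0.12 (adjusted p = 0.00107), and the 4 lines were again all lower. In the DAR set SPCS3 read 5014, 9647, 7181 and 4401 in control 1, 3650, 7878, 6448 and 3368 at 6 h and 3457, 8580, 6300 and 3746 at 24 h. With this probe set every line was below its control at both DAR times, and the change at 6 h was -0.32 ± 0.12 (adjusted p = 0.0681). The 2 other bright SPCS3 probe sets gave 0.26 and 0.03 at 6 h and 0.20 and -0.25 at 24 h of DAR. The direction for SPCS3 under DAR thus rests on the probe set read.

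SEC11C is a catalytic subunit of the same complex (223299_at). In control 2 SEC11C was at 4737, 15957, 18232 and 13901, and after 24 h of ATO at 3946, 12026, 14625 and 12497. The fall was small, at -0.28 ± 0.08 (adjusted p = 0.0467), and ranged from -0.41 in MM.1s to -0.15 in 8226/S. This call was lost without U266, without MM.1s or without KMS11. The values were 5585, 20539, 19921 and 14567 at 6 h of ATO and 3962, 12060, 14904 and 13010 at 48 h of ATO. At 6 h every line was above its control, and at 48 h the gene had fallen by 0.26 ± 0.08 (adjusted p = 0.0409). With DAR, control 1 read 5659, 18328, 22882 and 14490, the 6 h arrays 5989, 17495, 24190 and 14158 and the 24 h arrays 4987, 16198, 22123 and 13651. SPCS1 and SPCS2 were at -0.17 ± 0.08 and -0.31 ± 0.11 after 24 h of ATO.

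The 2 traffic genes did not pass in any comparison with control. SEC24D, a cargo adaptor of COPII vesicles, was at -0.72 ± 0.25 (adjusted p = 0.103). KDELR3, which returns escaped chaperones from the Golgi, read 471 to 940 in 8226/S and 25.1 to 379 in the other lines. In MM.1s it was above its control in all 5 treatments, by 0.69 to 1.69, and in 8226/S below it in all 5, at -0.62 to -0.02. U266 and KMS11 went both ways, and the test of line differences did not pass (adjusted p = 0.458). KDELR3 read 25.1 in control 1 of MM.1s, under that array's median of 79.4, so its DAR rises there start near the floor. Another KDELR3 probe set, with a mean signal of 285 against 322, gave -0.48 at 6 h of DAR and -0.31 at 48 h of ATO. The one read gave 0.41 and 0.18.

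After 48 h of ATO, of 36 members, 11 fell and 1 rose, against 5.38% of all tested genes lower and 6.35% higher, and the median was -0.25 against 0.06. All 11 that fell at 48 h had fallen at 24 h. In 10 members the change was below 0 in all 4 lines, a count not made over all genes. The mean change was above 0 in 7 of 36 members and in 8737 of 15437 tested genes. 8226/S stood apart at 48 h, with a median member change of 0.14, against -0.38 in U266, -0.37 in MM.1s and -0.30 in KMS11. Leaving out MM.1s, KMS11, U266 or 8226/S gave 5, 4, 8 or 15 members. Without MM.1s and without KMS11, 763 and 648 of all tested genes were called, against 981 higher and 831 lower with all lines.

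**Figure D4:**
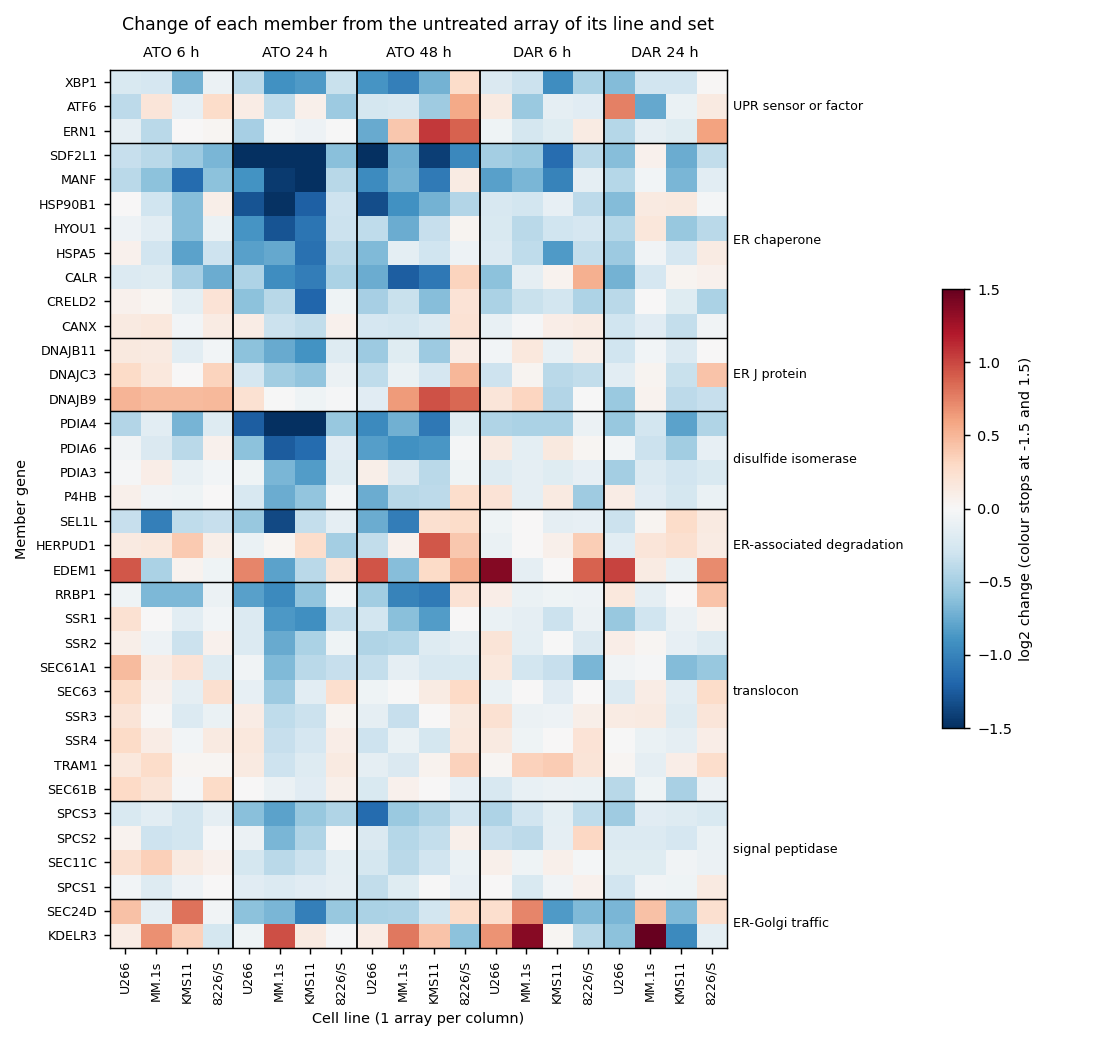
Log2 change of each of the 36 members (rows, grouped by role) from the untreated array of the same line and set, for the 20 treated arrays (columns). The blue block at ATO 24 h is strongest in MM.1s and KMS11, whose median changes are -0.69 and -0.52, against -0.24 in U266 and -0.15 in 8226/S.

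The 6 h and 24 h ATO arrays differed. From 6 h to 24 h, 8 members fell and none rose, against 0.317% of all tested genes lower and 0.143% higher. These were PDIA4 (-0.91 ± 0.15, adjusted p = 0.00353), HSP90B1 (-0.86 ± 0.17), HYOU1 (-0.66 ± 0.15), PDIA6 (-0.64 ± 0.14), DNAJB11 (-0.63 ± 0.11), CRELD2 (-0.61 ± 0.13), SSR1 (-0.60 ± 0.13) and SEC11C (-0.48 ± 0.08). At 6 h itself the median member change was -0.02, and MANF was the only call. That 1 of 36 was near the background of 2.64% of all tested genes lower and 3.78% higher. Leaving out U266, MM.1s or KMS11 gave 0 such members, and pooled controls gave 0. Over all tested genes 23, 22 and 4 were then called, and 10 with pooled controls, against 22 higher and 49 lower in the main fit. From 24 h to 48 h limma called 0 members and 0% of all genes higher or lower, with 10 members higher and 0 lower at an unadjusted p under 0.05. Here and below, counts at an unadjusted p have no share of all genes beside them, so no excess can be read from them.

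At 6 h of DAR 2 members fell, SDF2L1 and MANF, and none rose, against 6.34% of all tested genes lower and 6.85% higher, so the members' share (2 of 36) was near the background. With arrays centred on their median 5 members fell and 0 rose, and 692 of 1846 called genes were higher. Without centring the median was -0.09, against 0.02 over all tested genes. There 12 members were below 0 in all 4 lines, a count not made over all genes. The mean change was above 0 in 11 of 36 members and in 8083 of 15437 tested genes. After 24 h of DAR limma called 0 of 36 members, against 0.13% of all genes lower and 0.492% higher, with 7 lower and 0 higher at an unadjusted p under 0.05. The median was then -0.15. From 6 h to 24 h of DAR 0 members were called by limma, against 3.61% of all genes lower and 4.06% higher, with 2 lower and 0 higher at an unadjusted p under 0.05.

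The compounds were given at equal dose only in 8226/S, and at a higher DAR dose in the other lines. The test of DAR minus ATO called 0 of 36 members at 6 h (0.998% of all genes higher, 1.21% lower) and 0 of 36 at 24 h (0.123% higher and 0.123% lower). At an unadjusted p under 0.05 there were 4 members lower in DAR at 6 h and 11 higher in DAR at 24 h. The percentages just given are at the adjusted threshold, and the share of all genes at the unadjusted one is not given here. At 24 h the difference was above 0 in 32 of 36 members, with a median of 0.31, against 7666 of 15437 tested genes and a median of 0. The largest was HSP90B1 at 0.98 ± 0.24 (95% interval 0.48 to 1.47, adjusted p = 0.0989), then SDF2L1 at 0.95 ± 0.29 (0.35 to 1.56) and MANF at 0.81 ± 0.26 (0.27 to 1.35). These tests thus do not show a difference at the threshold, and the intervals do not show that the compounds act alike. In 8226/S at equal dose, with 1 array each and no test, HSPA5 changed by -0.41 under ATO and 0.12 under DAR at 24 h, HSP90B1 by -0.31 and -0.03, and SDF2L1 by -0.63 and -0.37. CRELD2 went the other way, at -0.06 under ATO and -0.47 under DAR, and DAR was below ATO in 11 of the 36 members and above it in 24. The median DAR minus ATO difference over members at 24 h was 0.16 in 8226/S, 0.08 in U266, 0.62 in MM.1s and 0.34 in KMS11.

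The members holding ERSE or ERSE-II are a description by promoter letters, with no test of the split. After 24 h of ATO 8 of these 10 had fallen (CALR, CRELD2, HSP90B1, HSPA5, HYOU1, PDIA6, SDF2L1 and XBP1), with a median of -0.76, and CANX and HERPUD1 did not pass. Of the 22 members whose window held neither, 9 had fallen, with a median of -0.34 and PDIA4 (-1.28) and MANF (-1.14) lowest. At 48 h of ATO 5 of the 10 and 6 of the 22 were lower, and at 24 h of DAR the medians were -0.24 and -0.08. The motif is thus neither shared by all genes that fell nor limited to them. The HSPA5 and HERPUD1 promoters, each with a single exact match, belong to genes at -0.78 and -0.08.

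**Figure D5:**
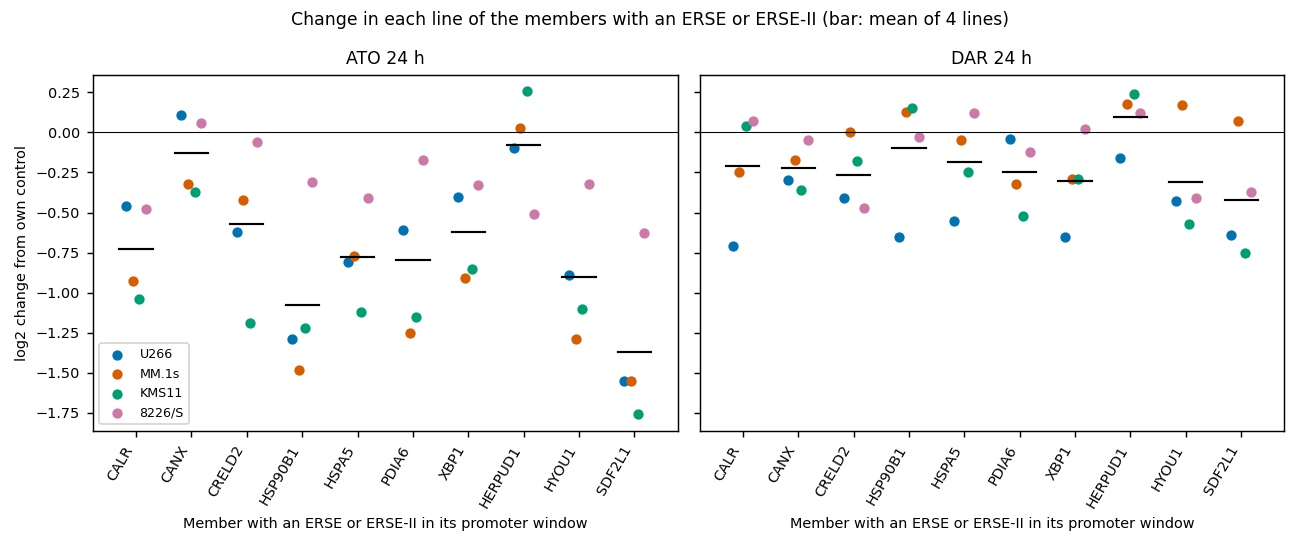
Log2 change from own control (vertical axis) in each line for the 10 members with an ERSE or ERSE-II in the promoter window, after 24 h of ATO (left) and DAR (right), with bars at the mean of 4 lines. After 24 h of ATO 8226/S is nearest to 0 for most of these genes, and CANX and HERPUD1 have lines on both sides of 0.

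Beyond the 36 members, a second list of 87 tested genes covers the rest of the pathway. The PERK and ATF4 arm, which slows translation and induces stress genes, had mostly calls upward. Of its 9 genes, 2 rose and 0 fell after 6 h of ATO, 2 rose and 1 fell after 24 h, 5 rose and 1 fell at 48 h, and 7 rose and 0 fell after 6 h of DAR. Over all tested genes the share higher was 3.78%, 2.73%, 6.35% and 6.85% in those comparisons. TRIB3, a pseudokinase induced by ATF4, rose by 1.61 ± 0.24 at 6 h and 1.80 ± 0.24 at 48 h of ATO, and SESN2, a stress-induced regulator of TORC1, by 1.69 ± 0.29 and 1.64 ± 0.29. At 6 h of DAR the largest rises were ATF3 (3.18 ± 0.44), a stress-induced transcription factor, and PPP1R15A (2.11 ± 0.31), which restores translation. EIF2AK3, the PERK gene, fell by 0.73 on the log2 scale after 24 h of ATO and rose by 1.16 ± 0.21 after 6 h of DAR. Over the 87 genes, 3 rose and 16 fell at 24 h of ATO, 8 rose and 14 fell at 48 h, 3 rose and 2 fell at 6 h, 10 rose and 5 fell at 6 h of DAR, and limma called 0 at 24 h of DAR, with 6 higher and 14 lower at an unadjusted p under 0.05. The share of all tested genes that were lower was 2.27% at 24 h and 5.38% at 48 h of ATO. The list's 3 and 2 calls at 6 h of ATO were near the background of 3.78% higher and 2.64% lower, as were the 5 falls at 6 h of DAR (6.34% lower).

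The largest falls in that list after 24 h of ATO were FKBP11 (-1.57 ± 0.24), a prolyl isomerase of secretory cells, and BHLHA15 (-1.54 ± 0.28), the secretory cell factor MIST1. At 48 h they were FKBP11 (-1.75 ± 0.24) and DERL3 (-1.50 ± 0.22), which acts in ER-associated degradation. At 6 h of ATO they were UBE2J1 (-0.76 ± 0.22), a ubiquitin-conjugating enzyme of the ER, and TRAM2 (-0.67 ± 0.14). Under DAR for 6 h they were UBE2G2 (-0.83 ± 0.19), another enzyme of that kind, and TMED10 (-0.49 ± 0.11), a cargo receptor. Of 18 folding enzymes outside the 36 members 5 fell and 0 rose at 24 h of ATO, and of 22 coat and cargo genes 1 fell and 0 rose. Of 11 further degradation genes 4 fell and 1 rose, and of 19 glycosylation and signal recognition particle genes 4 fell and 0 rose. Of 8 regulators of the unfolded protein response 1 fell and 0 rose. Over all tested genes 2.27% were lower and 2.73% higher, and the coat and cargo count was near that.

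Before treatment the lines differed in most members. By limma's F test with the control number in the fit, 30 of 36 members differed between lines, against 51.7% of all tested genes. Mean control signals were lowest in U266 for 21 members and highest in MM.1s for 16. HSPA5 was the most even, at 20270, 16570, 17830 and 20710, a 1.25-fold range, and did not pass (adjusted p = 0.168). SEL1L spanned 5.94-fold, from 10650 in U266 to 1745 in 8226/S, and EDEM1 5.17-fold, from 4094 in MM.1s to 766 in U266. XBP1 was at 12270, 19950, 15980 and 7948 (adjusted p = 0.000144). The test of line differences in the arsenic response called 0 of 36 members, against 0.0453% of all genes, with 3 members (EDEM1, KDELR3 and MANF) at an unadjusted p under 0.05.

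The 2 control groups differed in more genes than any treatment did from its control. Control 2 was above control 1 in 11 members and below it in 12, against 28.2% of all tested genes higher and 16.8% lower. After quantile normalization 12 members were higher and 2 lower, with 2491 of 4931 called genes higher, so the split of directions between the controls depends on the scaling. The largest differences were CALR (1.52 ± 0.13), HYOU1 (1.42 ± 0.12), KDELR3 (1.26 ± 0.28), RRBP1 (1.24 ± 0.14) and PDIA4 (1.09 ± 0.11) upward, and SSR1 (-0.75 ± 0.09) and SEC63 (-0.72 ± 0.11) downward. Of 41 other bright probe sets of 20 members, 40 had the sign of the one read at 24 h of ATO, 38 at 48 h and 31 at 6 h, against 24 at 6 h and 26 at 24 h of DAR.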

How the data were processed

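The deposited intensity table holds 1 value per probe set and array, made by the authors with GCOS, per the submitters' processing notes; its version and the annotation used are not given in the sources used here. As deposited, every array had the same trimmed mean (the mean without the lowest and highest values), 500.1, although the medians differed between the sets. The intensities were used without further rescaling, as log2 of the value plus 29. Probe sets with 1 symbol were kept, and a gene was read from its brightest one. A gene was tested where its signal passed the 50th percentile on 4 or more of the 28 arrays (15437 genes), with limma 3.58.1 in R 4.3.3. The fit has 8 baselines (each line in each array set) and 5 treatments, leaving 15 residual degrees of freedom, with a variance trend and Benjamini-Hochberg adjustment over all genes in each comparison. The SE pools the spread of all treatments. Line differences were tested with F tests.

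Lines pair the arrays by their labels: deviations from group means correlated by at least 0.626 between arrays of 1 line. No array was a copy of another (highest correlation 0.966). The method was tested on simulated data. Promoters came from a RefSeq table (GRCh38.p14), with entries for 32 of the 36 genes, and protein sequences were not used here. With 4 arrays a group, precision is limited by their number.

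The genes, lists and motifs were chosen with earlier results of these data known. Every-array values are given for members called in at least 2 of the 5 comparisons with control and for HSPA5, XBP1, ERN1 and ATF6. DNAJB9 and EDEM1, and the line-by-line remarks on KDELR3, were chosen after their values were seen. From the second list, the 2 largest calls per direction and treatment could be named, and EIF2AK3 was added after its values were seen. The alternatives were quantile normalization, median centring, offsets of 1 and 100, no filter or one at the 70th percentile, the mean of all probe sets, pooled controls, no line block, and leaving out each line.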

Additional observations from a re-analysis of the deposited data

Results flagged for a closer look

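Of 180 sets of 4 lines (36 members in 5 treatments), 9 had 1 line far from the other 3 by Dixon's test, which flags about 1 in 20 by chance. PDIA6 was at -0.03 in 8226/S after 48 h of ATO, against -0.91 to -0.83 in the other lines, and CANX was at 0.22 there, against -0.27 to -0.21. PDIA4 was at -0.09 in 8226/S after 6 h of DAR, against -0.48 to -0.45. SEL1L was at -1.02 in MM.1s after 6 h of ATO, against -0.38 to -0.34. HYOU1 was at -0.64 in KMS11 after 6 h of ATO, against -0.16 to -0.08. ERN1 was at -0.50 in U266 after 24 h of ATO, against -0.08 to -0.01. SPCS3 was at -0.53 in U266 after 24 h of DAR, against -0.23 to -0.17. SSR3 was at -0.19 in KMS11 at that time, against 0.12 to 0.18, and SEC61B was at -0.24 in U266 after 6 h of DAR, against -0.11 to -0.09.

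The ATO response at 24 h differed from that at 6 h in 8 members by limma's test of the difference, each lower at 24 h: PDIA4 (-0.91), HSP90B1 (-0.86), HYOU1 (-0.66), PDIA6 (-0.64), DNAJB11 (-0.63), CRELD2 (-0.61), SSR1 (-0.60) and SEC11C (-0.48). Over all tested genes 0.317% were lower and 0.143% higher. As given above, 0 members were called without U266, without MM.1s, without KMS11 or with pooled controls.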

How the results depend on the processing

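Dropping the line term (no replicate block), although the lines pair the arrays, left 0 members called at 6, 24 and 48 h of ATO, 0 at 6 h of DAR and 0 between 6 and 24 h of ATO. Over all tested genes 30, 15, 18, 47 and 0 were then called, so the loss was not limited to the members. Pooling the 8 controls gave 2 members at 6 h of ATO (1253 of 15437 tested genes) and 0 between 6 and 24 h of ATO (10 genes). Under DAR it gave 4 at 6 h (2205 genes) and 3 at 24 h (492 genes). For DAR minus ATO it gave 15 and 19 members at 6 and 24 h, against 5043 and 5453 of all tested genes. The difference between array sets enters there. With pooled controls the DAR 6 h median became -0.14, against -0.10 over all genes. CALR was then at 0.03 and 0.08, and RRBP1 at 0.03 and 0.03, at 24 and 48 h of ATO. Averaging all probe sets put XBP1 at 0.15 at 48 h of ATO, with 4 members (1687 genes) at 6 h of DAR and 1 (872 genes) from 6 to 24 h of DAR. Quantile normalization gave 2 members (1176 genes) at 6 h of ATO and 14 (4931 genes) between controls. Median centring gave 5 members (1846 genes) and a median of -0.18 (-0.07 over all genes) at 6 h of DAR, and 3 members (32 genes) between 6 and 24 h of ATO. The 70th percentile filter gave 4 members (2174 genes) at 6 h of DAR. Leaving out each line gave 0 to 3 members at 6 h, 6 to 21 at 24 h and 4 to 15 at 48 h of ATO, 0 to 3 at 6 h of DAR, 0 to 10 from 6 to 24 h and 0 to 1 from 24 to 48 h of ATO, 0 to 1 from 6 to 24 h of DAR and 0 to 1 for DAR minus ATO at 24 h. Calls over all genes also fell without MM.1s or without KMS11 at 24 and 48 h of ATO, as given above. The cause of these shifts was not tested. Over the alternatives run, 245 of 281 counts and medians stayed close to the reported value, and 5 of 1235 single-gene values changed sign. The second XBP1 probe set was above the array's median on 10 of 28 arrays, and KDELR3 on 24.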
